A study of Mus musculus with 4 samples.

Results

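Among the 9 genes described here, 7 had fewer transcripts in the GOLPH2-deficient than in the wild-type dendritic cell library after interferon-gamma (IFN-gamma) and LPS, by 1.24- to 1.47-fold. By the same threshold 6.54% of all genes were lower. Without stimulation 2 of the 9 were lower, beside 4.27% of all genes, on the centred scale explained below, though above 0 in the ratios as deposited. Each genotype and state was 1 library, so these are differences between libraries. The 9 genes are Parp1, Parp8, Parp9, Parp10, Parp11, Parp12, Parp14 and Zc3hav1, which belong to the PARP family of ADP-ribosyltransferases, and Dtx3l, the ubiquitin ligase that pairs with the Parp9 protein. They were chosen by gene symbol and all 9 were listed in both of the authors' deposited tables, among 14823 genes that the tables share. Parp1 and Parp8 are not typical interferon-induced genes, and no response to stimulation was computed here, so the label "interferon-linked" was not checked for any of the 9.

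The cells were bone marrow-derived dendritic cells of C57BL/6 mice aged 8 weeks, either wild type (WT) or GOLPH2-/- (KO), the latter lacking a Golgi membrane protein whose gene is Golm1. Both genotypes were studied without stimulation and after IFN-gamma for 16 h followed by LPS, a component of bacterial cell walls, for 4 h. Each of these 4 groups was 1 mRNA sequencing library. The sources used here do not give the number of mice per library, the doses or the part of Golm1 that was removed. The tables hold, for each gene and state, a log2 ratio of KO over WT and a p-value; values per library were not analysed here, so the depth is unknown.

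PARP enzymes transfer ADP-ribose from NAD onto proteins or nucleic acids, as chains or as single units. Interferons switch on several of the single-unit enzymes and the inactive member Zc3hav1 through transcription factors that their receptors activate, and the products restrict viruses or tune cytokine signalling in macrophages and dendritic cells. Parp1, in contrast, is the abundant nuclear enzyme that senses DNA breaks in most cells.

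Ratios below are log2 of KO over WT after subtracting the point at which the authors' own p-values reach 1, which was 0.19 (unstimulated table) and −0.04 (stimulated table) on the deposited log2 scale. The value after ± is a counting standard error (SE) derived from the deposited p. It covers the sampling of reads only, because no group has a replicate. Calls were made at a Benjamini-Hochberg adjusted p, taken over all genes of the table, under 0.001. A call therefore speaks of the 2 libraries at hand and not of the conditions. The targeted gene Golm1 (chromosome 13, 59634626 to 59675811, GRCm38) was at −2.09 in unstimulated cells, with an SE of at most 0.098, and at −2.0 ± 0.10 in stimulated cells, which is 23.5% and 25.0% of the WT level. Golm1 was thus lower in both libraries labelled KO.

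After IFN-gamma and LPS, Parp9, Parp10, Parp11, Parp12, Parp14, Zc3hav1 and Dtx3l were called lower in the KO library and none of the 9 genes was called higher. Over all 15310 genes of that state, 6.54% were called lower, 5.36% higher and 11.9% in either direction. These shares are not matched for precision, on which a call depends. The SE of the 9 genes ran from 0.020 to 0.052, beside a median of 0.092 over all genes. In unstimulated cells it ran from 0.023 to 0.071, beside a median of 0.088. The median ratio of the 9 genes was −0.35, beside 0.01 over all genes, and the ratios ran from −0.56 to −0.07. None of the 9 reached 1.5-fold on the centred scale; of all genes in the table, 0.594% were called lower at this size. In bulk RNA, fewer cells that express a gene and less of its RNA per cell cannot be told apart.

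**Figure D1:**
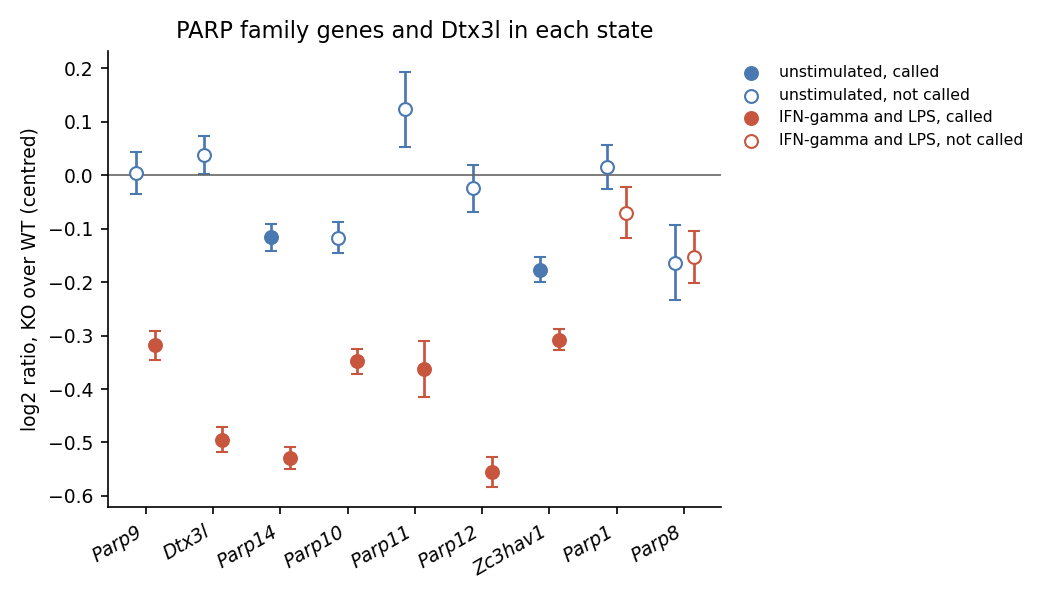
Log2 ratio of KO over WT (vertical axis, centred on the zero of the authors' test) for each gene in unstimulated cells (blue) and after IFN-gamma and LPS (red), 1 library per genotype and state. Bars are ±1 counting SE and filled points are called genes; 7 red points lie between −0.56 and −0.31, and those of Parp1 and Parp8 lie at −0.07 and −0.15.

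The upstream sequences of 4 members are shown, chosen after the matches and the calls had been seen. They were searched for 2 motifs through which interferon-activated factors are known to act. Parp11 alone of these 4 holds a match, while 3 of these 4 genes were called lower after stimulation. Each is the 250 bases before the RefSeq transcript start, on the gene's own strand, 5′ to 3′, from the GRCm38.p6 promoter windows of RefSeq. Capitals mark a match to GAAA, any 2 bases and GAAA, the core of the interferon-stimulated response element (ISRE), or to TTC, any 3 bases and GAA, the gamma-activated site (GAS), searched on both strands; the letters of both may overlap.
Parp11 (chr6:127446590-127446839, + strand): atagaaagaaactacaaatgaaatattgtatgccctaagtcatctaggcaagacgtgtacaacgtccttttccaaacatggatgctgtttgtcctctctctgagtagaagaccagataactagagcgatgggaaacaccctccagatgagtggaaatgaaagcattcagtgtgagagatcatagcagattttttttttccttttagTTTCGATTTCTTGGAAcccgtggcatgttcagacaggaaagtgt
Zc3hav1 (chr6:38354604-38354853, − strand): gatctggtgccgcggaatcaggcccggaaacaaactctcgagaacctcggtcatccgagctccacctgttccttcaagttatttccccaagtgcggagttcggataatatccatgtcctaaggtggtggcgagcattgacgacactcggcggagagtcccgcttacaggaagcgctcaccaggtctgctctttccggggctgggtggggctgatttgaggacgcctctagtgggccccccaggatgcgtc
Parp12 (chr6:39118350-39118599, − strand): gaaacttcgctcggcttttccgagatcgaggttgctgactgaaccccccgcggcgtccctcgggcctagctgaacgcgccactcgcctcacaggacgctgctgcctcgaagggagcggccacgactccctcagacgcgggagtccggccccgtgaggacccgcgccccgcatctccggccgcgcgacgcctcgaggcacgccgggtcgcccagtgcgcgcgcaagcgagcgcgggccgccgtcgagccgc
Parp1 (chr1:180568641-180568890, + strand): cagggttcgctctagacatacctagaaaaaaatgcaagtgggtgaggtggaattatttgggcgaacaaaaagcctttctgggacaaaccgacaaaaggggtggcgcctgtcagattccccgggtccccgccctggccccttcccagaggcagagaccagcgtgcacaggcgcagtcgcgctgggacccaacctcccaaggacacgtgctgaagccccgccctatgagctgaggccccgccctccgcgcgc
The Parp11 window holds both motifs in 1 run of 16 bases that begins 44 bases before the start, with the ISRE letters on the reverse strand and overlapping the GAS letters. The other 3 windows hold neither, as do the windows of Dtx3l and Parp8 and a second, downstream window of Parp11. By the GENCODE annotation, 179 bases of the Dtx3l window are exonic in Dtx3l or Parp9. In the Parp12 window 127 bases are exonic in 4930599N23Rik. Sequence after the RefSeq start was not searched. Windows of Parp9, Parp10 and Parp14 were not analysed here. Of all 32851 RefSeq windows of this length, 2.98% hold the ISRE letters and 7.02% the GAS letters. Among genes with a window in the stimulated table, 55 of 374 with the ISRE letters were called lower (14.7%), beside 744 of all 11266 (6.60%); in unstimulated cells the shares were 4.53% and 4.37%. For the GAS letters the stimulated share was 7.03%. These shares are not matched for precision, and the part of the motifs in the ratios was not tested. A match is a string of letters, not a binding site, and Parp12 was the lowest of the 9 genes with no match in its window.

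Parp9 and Dtx3l encode the partners of 1 complex, an ADP-ribose-binding PARP and its ubiquitin ligase. The authors' deposited table of stimulated cells gives Parp9 a log2 ratio of −0.354 and Dtx3l one of −0.531. Centred, Parp9 was at −0.32 ± 0.027 (80.2% of the WT level) and Dtx3l at −0.49 ± 0.024 (71.0%). Both were called lower, at an adjusted p of 6.02e-30 for Parp9 and 9.61e-95 for Dtx3l. The partners did not move by the same amount: Dtx3l was lower than Parp9 by a log2 difference of −0.18 ± 0.036, which is 4.89 counting errors. Without stimulation the KO and WT libraries were close for both genes, at 0.00 ± 0.039 for Parp9 and 0.04 ± 0.036 for Dtx3l, and neither was called (adjusted p 0.967 and 0.57).

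Parp14 encodes a large macrodomain protein that attaches single ADP-ribose units and is known as a co-activator of STAT6. In stimulated cells its ratio was −0.53 with an SE of at most 0.020 (69.3% of WT), since its deposited −log10 p stands at the table's highest value of 150. In unstimulated cells Parp14 was also called lower, but by much less, at −0.12 ± 0.026 (92.2% of WT, adjusted p 8.43e-05). Zc3hav1 encodes the zinc-finger antiviral protein ZAP, a PARP family member without catalytic activity that binds viral RNA. It was at −0.31 ± 0.020 in stimulated cells (80.8% of WT, adjusted p 5.21e-51) and at −0.18 ± 0.023 in unstimulated cells (88.5% of WT, adjusted p 9.37e-13). Parp14 and Zc3hav1 were thus the 2 of 9 genes called lower without stimulation, where 4.27% of all 15394 genes were called lower, 4.7% higher and 8.96% in either direction, and the 2 called lower in both states, as were 2.23% of the genes in both tables. The direction in unstimulated cells rests on the zero point: in the authors' deposited table, Parp14 stands at 0.075 and Zc3hav1 at 0.015, both above 0, with −log10 p of 5.23 and 13.6.

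Parp10, Parp11 and Parp12 attach single ADP-ribose units. Parp12, whose protein is found at the Golgi and carries RNA-binding zinc fingers, had the lowest ratio of the 9 genes in stimulated cells, at −0.56 ± 0.028 (68.1% of WT, adjusted p 1.15e-87). Of the 15310 genes, 6.96% had a lower ratio. Among the 11110 of them with an SE of at most 0.29, Parp12 ranked 144 from the lowest. It is the 1 gene of the 9 that the authors' deposited table marks as differentially expressed, as it does 1.04% of all genes. The authors' deposited table has it at −0.591, just past 1.5-fold; centred it was 1.47-fold lower. In unstimulated cells Parp12 was at −0.02 ± 0.044 and was not called (adjusted p 0.81).

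Parp10 was at −0.35 ± 0.023 in stimulated cells (78.6% of WT, adjusted p 9.36e-48). In unstimulated cells it was at −0.12 ± 0.030, the same ratio as Parp14, and with an adjusted p of 0.00108 it lay just outside the threshold. Parp11, whose protein is known to act on the type I interferon receptor, was at −0.36 ± 0.052 in stimulated cells (77.8% of WT, adjusted p 7.15e-11). Its ratio in unstimulated cells was the highest of the 9, at 0.12 ± 0.071, and was not called (adjusted p 0.256). The counting errors of Parp11 were the largest among the 7 genes called lower, so its ratios are the least precise of these.

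Parp1 and Parp8 were not called in either state. Parp1 was at 0.02 ± 0.041 in unstimulated and −0.07 ± 0.048 in stimulated cells (adjusted p 0.879 and 0.354), or 101.1% and 95.3% of WT. Parp8, a single-unit enzyme of little known function, was at −0.16 ± 0.070 and −0.15 ± 0.048 (adjusted p 0.0918 and 0.0099). Its ratio was nearly as low as that of Zc3hav1 in unstimulated cells, with a larger SE (0.070 against 0.023); a p that misses the threshold does not show that Parp8 was the same in both genotypes.

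In the order of the ratios in stimulated cells, Parp12, Parp14 and Dtx3l were lowest. Parp12 and Parp14 differed by −0.026 and Parp14 and Dtx3l by −0.034, with errors of at most 0.034 and 0.031, since the SE of Parp14 is an upper limit. The SE of Parp12 alone, 0.028, exceeds its difference from Parp14, so these 2 lay within 1 counting error. Parp14 and Dtx3l differed by at least 1.10 counting errors, and the exact number is not known. Between Dtx3l and Parp11, the next in the order, the gap was −0.13 ± 0.057. Parp11, Parp10, Parp9 and Zc3hav1 followed within 0.82 counting errors of their neighbours. Zc3hav1 was lower than Parp8 by −0.15 ± 0.052, and Parp8 and Parp1 differed by 1.21 counting errors. In unstimulated cells no 2 neighbours in the order differed by more than 1.80 counting errors, but genes further apart did: Parp14 was lower than Dtx3l by −0.15 ± 0.044 and lower than Parp9 by −0.12 ± 0.047.

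The design implies a comparison of the genotype ratio between the states, which has no replicate and was not tested. The stimulated ratio minus the unstimulated ratio was −0.53 ± 0.043 for Dtx3l, −0.53 ± 0.052 for Parp12, −0.49 ± 0.088 for Parp11, −0.41 for Parp14, with an SE of at most 0.033, and −0.32 ± 0.048 for Parp9. It was smaller for Parp10 (−0.23 ± 0.038) and Zc3hav1 (−0.13 ± 0.031). Each of these 7 differences was at least 4.28 counting errors from 0. For Parp1 the difference was −0.09 ± 0.063 and for Parp8 it was 0.01 ± 0.085, both within 1.35 counting errors. On the uncentred scale, each difference is lower by the gap between the 2 zero points, and that of Parp8 becomes −0.22.

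**Figure D2:**
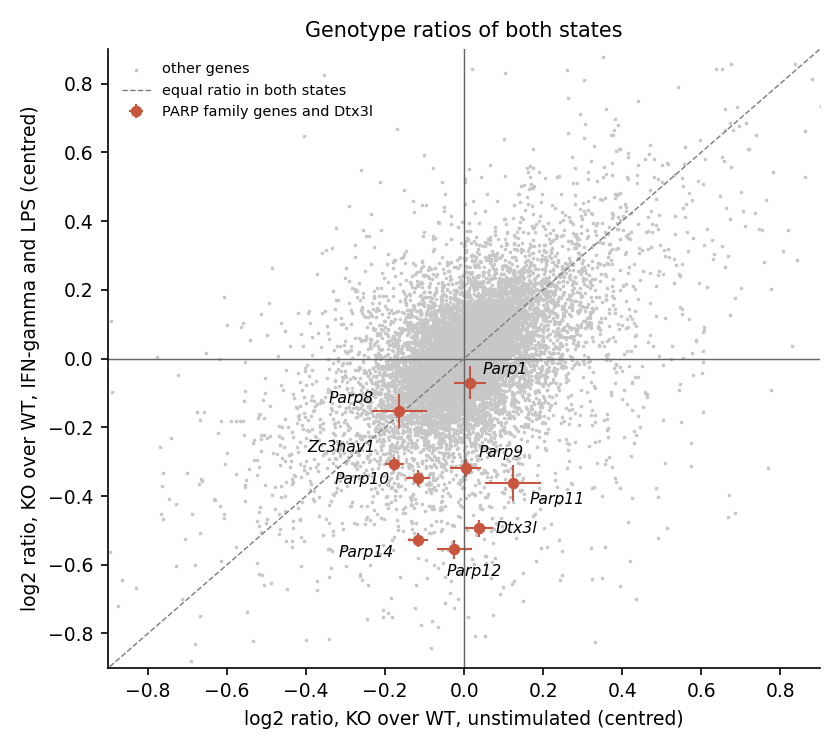
Centred log2 ratio of KO over WT in unstimulated cells (horizontal axis) and after IFN-gamma and LPS (vertical axis) for the 9 genes (red, bars ±1 counting SE) and other genes with an SE in both tables of at most 0.29 (grey); 55 genes lie outside the axes. The 7 genes called lower after stimulation lie below the dashed line of equal ratios, and Parp8 lies close to it.

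By the rule for likeness of pattern, the genes closest to Parp12 were ranked by distance over the 2 centred ratios (unstimulated and stimulated), among 10984 genes with an SE of at most 0.29 in both tables. The closest 5 were Napb, Trim30d, Tas1r3, Zfp382 and Xrn1, at distances of 0.017 to 0.050 on the log2 scale. Napb, Tas1r3 and Zfp382 have counting errors of 0.14 to 0.22, so their place is loosely fixed. Trim30d (−0.03 ± 0.049 and −0.53 ± 0.030) and Xrn1 (−0.05 ± 0.065 and −0.60 ± 0.062) are more precise. Among the 9 genes, Dtx3l ranked 29 and Parp14 ranked 37 in closeness to Parp12. A likeness over 2 values is a weak description.

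A group of 3 genes lies together. Parp14 (chromosome 16, 35832874 to 35871544, GRCm38, − strand), Dtx3l (35926511 to 35939151, − strand) and Parp9 (35938470 to 35972605, + strand) fall within 140 kb, and all 3 are protein-coding. Dtx3l and Parp9 face away from each other and overlap at their starts by 682 bases, 458 of them exonic in both genes on opposite strands. Libraries were strand-specific, but the sources used here do not give the strand setting of the counting, so reads of this stretch cannot be placed for certain. Among protein-coding genes within 200 kb of the cluster, 6 others were listed in both tables. Of these Kpna1, next to Parp9, was the 1 called in stimulated cells, on the lower side, at −0.17 ± 0.042 (adjusted p 0.000422); its ratio in unstimulated cells was close to this, at −0.13 ± 0.041 (adjusted p 0.011, not called). Dirc2 (0.05 ± 0.036), Hspbap1 (0.01 ± 0.097), Fam162a (−0.06 ± 0.046) and Ccdc58 (−0.05 ± 0.095) were near 0, and Wdr5b was at 0.30 ± 0.25. These neighbours were chosen by position after the values of the 9 genes had been seen.

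**Figure D3:**
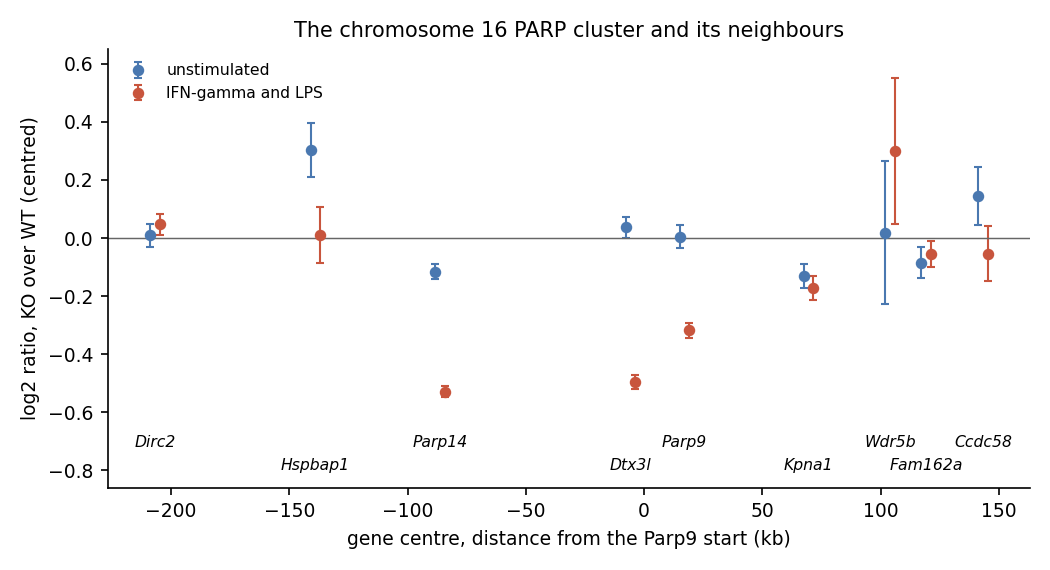
Centred log2 ratio of KO over WT (vertical axis, bars ±1 counting SE) for Parp14, Dtx3l, Parp9 and 6 neighbours on chromosome 16, placed by the distance of the gene's centre from the Parp9 start in kb. After IFN-gamma and LPS (red) the 3 genes of the cluster lie between −0.53 and −0.32 and Kpna1 at −0.17; unstimulated values are blue.

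The other members lie apart from this cluster. Zc3hav1 (chromosome 6, 38305286 to 38354603, − strand) and Parp12 (chromosome 6, 39086410 to 39118349, − strand) are 732 kb from each other, and Parp11 is elsewhere on the same chromosome (127446840 to 127494261, + strand). Parp10 is on chromosome 15 (76231174 to 76243441, − strand), Parp8 on chromosome 13 (116854820 to 117025537, − strand) and Parp1 on chromosome 1 (180568924 to 180601254, + strand). Parp10 shares 205 exonic bases with Plec on the same strand; Plec was at 0.19 ± 0.015 in unstimulated and 0.01 ± 0.016 in stimulated cells, and its part in the Parp10 value was not tested. Parp14 shares 110 exonic bases with another annotated transcript, Gm49730.

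The remaining PARP genes (Parp2, Parp3, Parp4, Parp6, Parp16, Tiparp, Tnks and Tnks2) are not classed with the interferon-linked members. Of these 8, 3 were called lower in stimulated cells and 0 higher. Over all genes, 6.54% were called lower and 5.36% higher in that state, and 4.27% and 4.7% in unstimulated cells. Tnks, which encodes the chain-forming enzyme tankyrase, was at −0.35 ± 0.049, the same ratio as Parp10. Tiparp, a target of the aryl hydrocarbon receptor, was at −0.14 ± 0.030 and Tnks2 at −0.13 ± 0.027. The median of the 8 was −0.08, beside −0.35 for the 9 members. In unstimulated cells Tnks2 alone was called lower (−0.12 ± 0.027, but 0.07 as deposited), with Tnks at an equal ratio but not called (−0.12 ± 0.046, adjusted p 0.053).

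Of 12 genes analysed under the label ADP-ribose removal and reading, 0 were called in either direction in stimulated cells, with a median of 0.04. The label does not hold in the strict sense for Hpf1, which is among the 12. The largest ratio, that of the macrodomain histone gene H2afy2, was imprecise (0.67 ± 0.41). Parg, which cuts ADP-ribose chains, was at −0.06 ± 0.055, and Macrod1, which removes single units, at 0.38 ± 0.19. In unstimulated cells Adprh, an ADP-ribosylarginine hydrolase, was called higher (0.14 ± 0.028). The 8 break repair partners of Parp1 had 0 called in both states. The largest stimulated ratio was that of Xrcc5, at 0.45 ± 0.45. Of 11 genes of NAD metabolism, Bst1 was called higher (0.21 ± 0.022) and Nampt, the rate-limiting enzyme of NAD salvage, lower (−0.08 ± 0.016) in stimulated cells. In unstimulated cells Bst1 (0.17 ± 0.023) and Nampt (0.08 ± 0.020) were called higher and the NAD kinase gene Nadk lower (−0.15 ± 0.026, but 0.04 as deposited). Of the 4 other Deltex ligases related to Dtx3l, 0 were called in stimulated cells, and Dtx4 was called lower in unstimulated cells (−0.33 ± 0.024). Over all genes, 5.36% were called higher and 6.54% lower in stimulated cells, and 4.7% and 4.27% in unstimulated cells. In stimulated cells the SE was 0.41 for H2afy2, 0.45 for Xrcc5 and 0.48 for Dtx1, beside 0.020 to 0.052 for the 9 members. A count of 0 called therefore depends in part on precision.

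Genes of proteins that work with ZAP, or upstream of interferon-induced genes, were mostly called lower after stimulation. Of 4 genes listed under the label ZAP cofactors, 3 were called lower after stimulation and 0 before. Ddx58, which encodes the RNA sensor RIG-I and is not a ZAP cofactor in the strict sense, had the lowest ratio, at −0.77 ± 0.037. The ubiquitin ligase gene Trim25 was at −0.38 ± 0.016 and the nuclease gene Khnyn at −0.26 ± 0.039. N4bp1 was at −0.06 ± 0.021 (adjusted p 0.0147). Of 13 interferon signalling genes, 9 were called lower in stimulated cells and 0 higher, with a median of −0.14. Over all genes, 6.54% were called lower and 5.36% higher in that state, and 4.27% and 4.7% in unstimulated cells. Usp18, an interferon-induced inhibitor of the receptor, was at −0.81, Stat2 at −0.43 ± 0.018 and Irf9 at −0.17 ± 0.032; for Usp18 the SE is at most 0.031. Irf1, which encodes an interferon-induced transcription factor, was at −0.27 ± 0.017. In unstimulated cells the same list had 1 gene called higher, Irf7 (0.18 ± 0.014), and 3 lower, Jak1 (−0.16 ± 0.021), Ifnar1 (−0.12 ± 0.026) and Jak2 (−0.12 ± 0.011), all 3 above 0 as deposited.

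**Figure D4:**
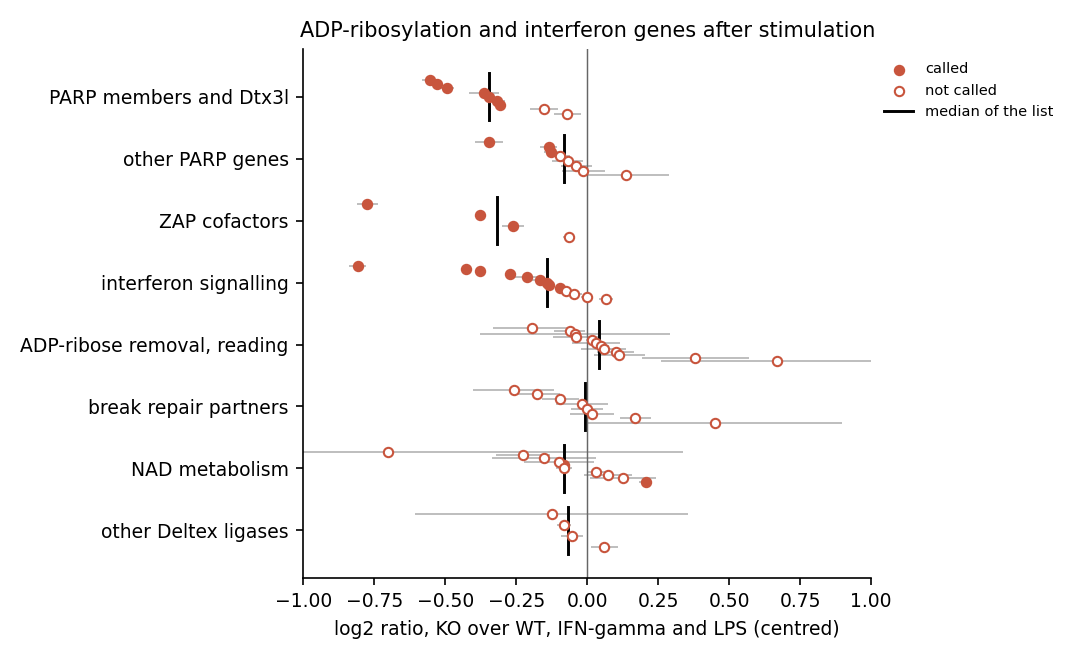
Centred log2 ratio of KO over WT after IFN-gamma and LPS (horizontal axis) for each gene of 8 lists, with ±1 counting SE, filled where called; the black line is the list's median. The 9 members have a median of −0.35. The list labelled ZAP cofactors, which includes the RNA sensor gene Ddx58, has −0.32. Interferon signalling has −0.14, and the other lists lie between −0.08 and 0.04. From NAD metabolism 1 gene, Nnmt (1.62 ± 0.69, not called), lies beyond the axis.

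Markers of cell content also differed between the KO and WT libraries, in both states. Over all genes, 5.36% were called higher and 6.54% lower in stimulated cells, and 4.7% and 4.27% in unstimulated cells. Of 6 stromal markers 5 were called higher and 1 lower in stimulated cells, with a median of 2.38 (0.96 in unstimulated cells, 3 called higher and 0 lower). After stimulation Col3a1 had the highest ratio of these, at 6.27 ± 0.40, and Pdgfrb was the 1 called lower, at −0.74 ± 0.15. All 8 dendritic cell markers were listed in both tables. Of these 5 were called higher and 0 lower in stimulated cells (median 0.11), beside 6 and 0 in unstimulated cells (median 0.18), and Itgax, which encodes CD11c, was at 0.29 ± 0.017 after stimulation. Among the markers of macrophages and monocytes, 4 of 8 were higher by the same threshold and 1 lower in each state (median 0.20 stimulated and 0.47 unstimulated). After stimulation C1qb was at 0.94 ± 0.15 and Emr1, which encodes F4/80, at 0.13 ± 0.010. The 1 called lower was Csf1r, at −0.15 ± 0.016 after stimulation. Of the neutrophil, B cell, T and NK cell, mast cell and basophil, and plasmacytoid markers, 2, 4, 5, 1 and 2 were analysed in stimulated cells, and the called ones were Gzmb (0.68 ± 0.15) and Hdc (−0.14 ± 0.018). The part of all these cell types in the PARP ratios was not tested, and the levels of these markers per library were not analysed here.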

How the data were processed

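The authors deposited 2 tables of KO over WT, 1 for each state. Per the file headers, 1 column is a log2 fold change; the p column is named log10 per the file headers and, from its values, holds −log10 p as deposited by the authors, capped at 100 and 150. The tools named per the submitters' processing notes are HTSeq 0.6.0 and FastQC 0.10.1, with the build mm10. The sources used here name no aligner, annotation, scaling or test. Adjusting the deposited p-values (Benjamini-Hochberg, threshold 0.001) with a deposited fold over 1.5 recovered the authors' marked genes (161 of 161 and 159 of 159).

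The zero point of each table is the log2 ratio that gave the smallest spread of log SE, with SE = |ratio − zero point| / normal deviate of the two-sided p. Its limit of 0.29 is that of 50 reads per library. The median SE was 0.088 in unstimulated and 0.092 in stimulated cells. Python 3.11.15, numpy 2.4.6, scipy 1.17.1 and pandas 2.3.3 were used, and the procedure was tested on simulated data. Positions came from GENCODE vM21 (GRCm38). Older symbols were matched through RefSeq synonyms.

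The members and lists were chosen with earlier results of these data known. The genes named are Golm1, all members, and of each list those called at 1.5-fold or the 1 to 4 with the largest ratios or, chosen after their values were seen, of textbook role; some named by this rule are not reported here. Alternatives were the ratios as deposited, centring on the median gene, other p thresholds and a limit on SE.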

Additional observations from a re-analysis of the deposited data

Results flagged for a closer look

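On the centred scale, 4 of the 9 genes had a ratio above 0 in unstimulated and below 0 in stimulated cells; as deposited, all 9 did. The difference between the states was not tested, with 1 library per genotype and state. The stimulated ratio minus the unstimulated ratio was −0.53 for Dtx3l, −0.49 for Parp11, −0.32 for Parp9 and −0.09 for Parp1, the last within 1.35 counting errors of 0. In unstimulated cells none of the 4 was called. The ratios of Parp1 and Parp9 were within 1 counting SE of 0 there, and Dtx3l was at 0.04 ± 0.036 and Parp11 at 0.12 ± 0.071. For none of the 4 is the sign in unstimulated cells fixed by these data.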

How the results depend on the processing

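Of 138 values recomputed under the alternatives, 116 kept their direction and side of the threshold or moved by less than 1 counting SE or 1.5 times. Much of this was fixed in advance. The p thresholds and the limit on SE leave every ratio as it is. Centring on the median gene moved ratios by only 0.001 (unstimulated) and 0.005 (stimulated), and the zero point had been searched only near that median. With the ratios as deposited, 17 values were kept, 11 moved and 5 were reversed. In stimulated cells the same 7 genes were called lower under the Bonferroni threshold, the limit on SE and an adjusted p under 0.05, where Parp8 joined them. With the ratios as deposited, 5 unstimulated ratios changed sign, to 0.027 for Parp8, 0.075 for Parp10, 0.17 for Parp12, 0.075 for Parp14 and 0.015 for Zc3hav1. The count called lower in unstimulated cells then went from 2 to 0, and 1 gene, Parp12, reached 1.5-fold in stimulated cells. On that scale the differences between the states were −0.31 for Parp1, −0.22 for Parp8, −0.55 for Parp9, −0.46 for Parp10, −0.71 for Parp11, −0.76 for Parp12, −0.64 for Parp14, −0.36 for Zc3hav1 and −0.76 for Dtx3l, by construction lower by the gap between the zero points. With Bonferroni adjustment 1 gene, Zc3hav1, was called in unstimulated cells, on the lower side. Parp10 passed in unstimulated cells at an adjusted p under 0.05 and, at 0.000796, with the limit on SE, where fewer genes are tested. Centring on the median gene changed no sign. Calls rest on the deposited p-values, which another centring leaves as they are, so their number could not change there. No paired analysis was possible because each group has 1 library. Depth per library is unknown, and the counting SE leaves out the spread between cultures, which these data cannot show.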
